A study of Mus musculus with 8 samples.

Results

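The genes described here encode the subunits of the last machines of the respiratory chain, complex IV (cytochrome c oxidase) and ATP synthase. They were taken from a count table of mouse lung endothelial cells as the protein-coding genes whose symbols begin with Cox4 to Cox8 or with Atp5, together with 5 genes of the mitochondrial genome (mt-Co1, mt-Co2, mt-Co3, mt-Atp6 and mt-Atp8). The rule gave 40 genes of the 43430 in the table: 18 Cox genes, 17 Atp5 genes and the 5 mitochondrial ones. It matched 7 further gene models that were left out, 6 of them pseudogenes and 1 a second model of Atp5o that the table does not list. Of the 40 genes 35 had enough reads to be tested, out of 12689 genes tested in all. The 5 without enough reads were isoforms that other tissues use: Cox6a2, Cox6b2, Cox7b2, Cox8b and Cox8c.

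The cells were lung cells carrying the endothelial surface protein CD31, isolated by flow sorting from C57BL/6 mice at postnatal day 15. The wild-type (WT) group had no deletion. The knockout (KO) group had lost QPC, a subunit of complex III, read here as the protein of the gene Uqcrq. The deletion was conditional on endothelial cells and was switched on with tamoxifen, given from postnatal day 0 to day 4. The protocol describes the tamoxifen treatment in the same words for both groups, and the sources used here do not name the Cre driver. Each group had 4 libraries of RNA sequencing. Whether the 4 libraries of a group are 4 animals is not stated, and p-values therefore rest on a spread between libraries that may be technical in part.

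Complex IV passes electrons from cytochrome c to oxygen and pumps protons across the inner mitochondrial membrane. ATP synthase lets protons flow back through a rotating ring of c subunits in the membrane, and the rotation drives ATP formation in its F1 head. Both complexes combine products of the nuclear and the mitochondrial genome. The catalytic core of complex IV and part of the membrane sector of ATP synthase are translated inside mitochondria, and all other subunits are made in the cytosol and imported. Complex III, which feeds complex IV with electrons through cytochrome c, stands just upstream of both. Several complex IV subunits come in pairs, with one isoform in most tissues and another restricted to muscle, lung, testis or brown fat.

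Total counts per library ran from 6407924 (WT replicate 3) to 13981329 (KO replicate 4). Levels are given as CPM, the count of a gene scaled to the size of its library with TMM factors, and lists of values follow replicates 1 to 4. Uqcrq read 26.2, 24.4, 26.7 and 31.5 CPM in the WT libraries and 1.59, 15.5, 9.55 and 13.9 CPM in the KO libraries. The 2 groups did not overlap (exact permutation test, two-sided, p = 0.02857, the smallest that 4 against 4 allows), but edgeR over all genes did not call Uqcrq (log2 fold change -1.42, SE 0.53, adjusted p = 0.179, and 0.0524 to 0.333 in the alternative fits). KO replicate 1 had the lowest level of the deleted gene. All 10 endothelial markers of a fixed list were detected, with a summed level of 14690 to 17425 CPM in WT and 12805 to 16550 CPM in KO. Of the 10, 2 were called lower in KO and 0 higher, beside 1.39% and 2.25% of all genes tested. The 2 were Tek, an angiopoietin receptor (edgeR log2 fold change -0.69, adjusted p = 0.00761), and the transcription factor Erg (-0.67, adjusted p = 0.0231). Their part in the values of the subunit genes was not tested. The 8 markers of alveolar type 2 epithelial cells, which CD31 should not select, were also present, at 3797 to 21949 CPM in WT and 3636 to 15971 CPM in KO. Over all genes, WT replicate 3 stood apart from the other libraries on the first principal component (28.3% of the variance) and KO replicate 1 on the second (23.1%). In such bulk samples, fewer cells of a type and less RNA per cell cannot be told apart.

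Among the subunit genes 1 of 35 tested rose in KO and 0 fell, with edgeR's quasi-likelihood test and Benjamini-Hochberg adjustment over all 12689 genes at 0.05. The gene that rose was mt-Co1, the core subunit of complex IV encoded by the mitochondrial genome. The share called higher, 2.86%, was near the background: of all genes tested 3.63% were called, 2.25% higher and 1.39% lower. At an unadjusted p under 0.05, 12 genes were higher and 0 lower, where 8.69% of all genes were higher and 6.53% lower at that level. With DESeq2 4 genes were called higher and with limma voom 2, and neither called any lower.

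The 28 nuclear subunit genes used in most tissues all passed the low-count filter, so no gene of this set was lost to it. Of these 28, 26 had a fold change above 0, beside 51% of all genes tested, and their median log2 fold change was 0.37 against 0.01 over all genes. In 8 of them all KO libraries lay above all WT libraries, a share of 28.6% beside 6.94% of all genes. That count was 14 without WT replicate 1 and 15 without KO replicate 1. With fewer libraries full separation is easier to reach for any gene. The share over all genes is not given for these counts, so the increase is not a result about the subunit genes. None of the 28 passed the adjusted threshold. For the 11 nuclear complex IV genes the median was 0.38 on the log2 scale, from 0.03 for Cox6c to 0.74 for Cox7c, and all 11 were above 0. The 17 nuclear ATP synthase genes stood at a median of 0.34, from -0.64 for Atp5s to 0.62 for Atp5e, with 15 above 0. The 28 genes were shorter than most, with a median summed exon length of 1832 bases beside 4522 over all genes tested. When the dependence of each library on transcript length and GC content was taken out (the length and GC trend), the medians were 0.20 and 0.16 and 22 of 28 genes stayed above 0.

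**Figure D1:**
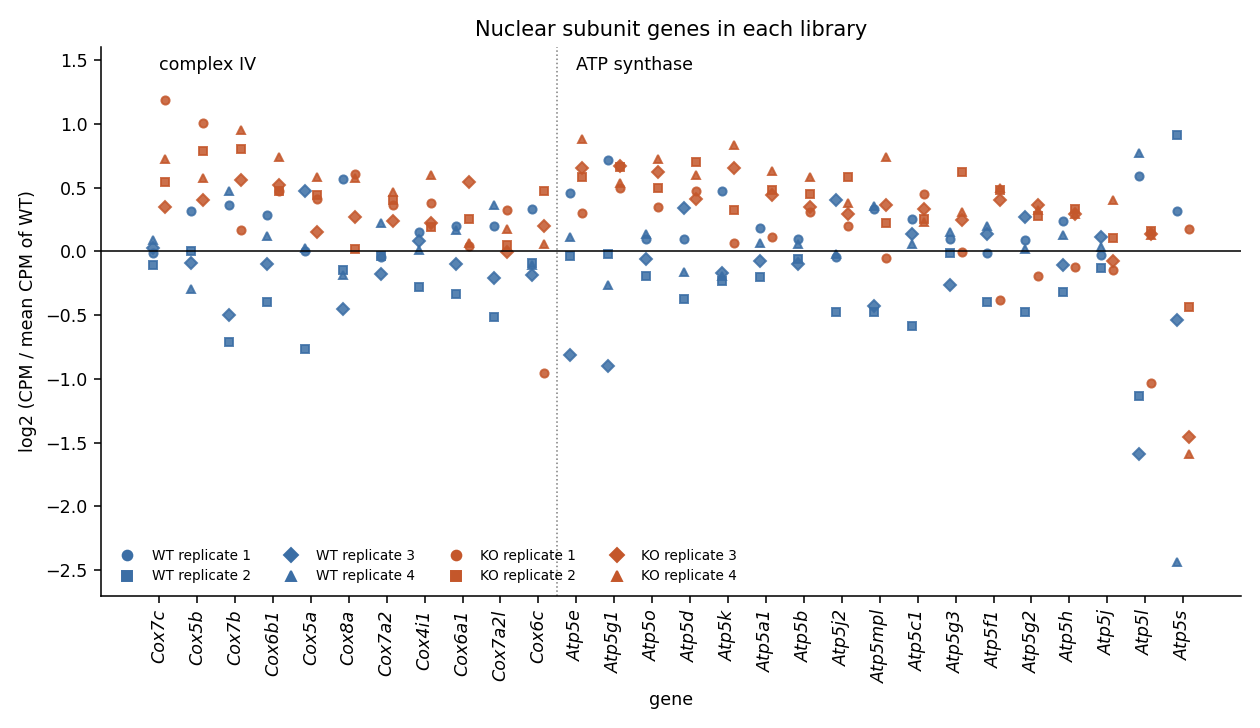
Level of each of the 28 nuclear subunit genes in each library, as log2 of its CPM over the mean CPM of WT (vertical axis), with genes ordered by fold change within each complex (horizontal axis). Blue symbols are the 4 WT and red symbols the 4 KO libraries, and the symbol shape gives the replicate number. In 8 genes every red symbol lies above every blue one.

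As a share of all counts, the 11 nuclear complex IV genes took 0.138%, 0.0951%, 0.115% and 0.129% in WT and 0.143%, 0.147%, 0.141% and 0.159% in KO. The 4 KO shares lay above the 4 WT shares, with means of 0.147% ± 0.00791 (SD, n = 4) and 0.119% ± 0.0186. The 17 nuclear ATP synthase genes took 0.280%, 0.215%, 0.248% and 0.267% in WT and 0.266%, 0.341%, 0.315% and 0.356% in KO. Here the groups overlapped, since KO replicate 1 fell between WT replicates 3 and 1. KO replicate 1 was the lowest KO library for 17 of the 28 nuclear genes, and WT replicate 2 was the lowest WT library for 18.

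Those libraries, WT replicate 2 and KO replicate 1, were also those with the least alveolar type 2 RNA in each group. They were likewise lowest for summed leukocyte and platelet, fibroblast, smooth muscle, and ciliated and club markers. Both were highest in their group for endothelial markers, at 17425 and 16550 CPM. For pericyte, alveolar type 1 and erythroid markers the lowest KO library was KO replicate 4. The summed alveolar type 2 markers read 21949, 3797, 9209 and 16580 CPM in WT and 3636, 10700, 15971 and 6687 CPM in KO. Within WT, the median nuclear complex IV gene stood at 0.20, -0.28, -0.10 and 0.08 (log2 of the CPM over the WT mean), so the WT libraries had the same order in both measures. The leukocyte and platelet markers had that order in WT too. Within KO, the medians were 0.38, 0.44, 0.27 and 0.57, in another order. The part of each cell type in these values was not tested. With the alveolar type 2 level as a covariate in the edgeR fit, an alternative chosen after the data were seen, 27 of 28 nuclear genes were above 0 and 4 of the 35 genes were called: mt-Co1 and the ATP synthase genes Atp5a1, Atp5b and Atp5o.

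**Figure D2:**
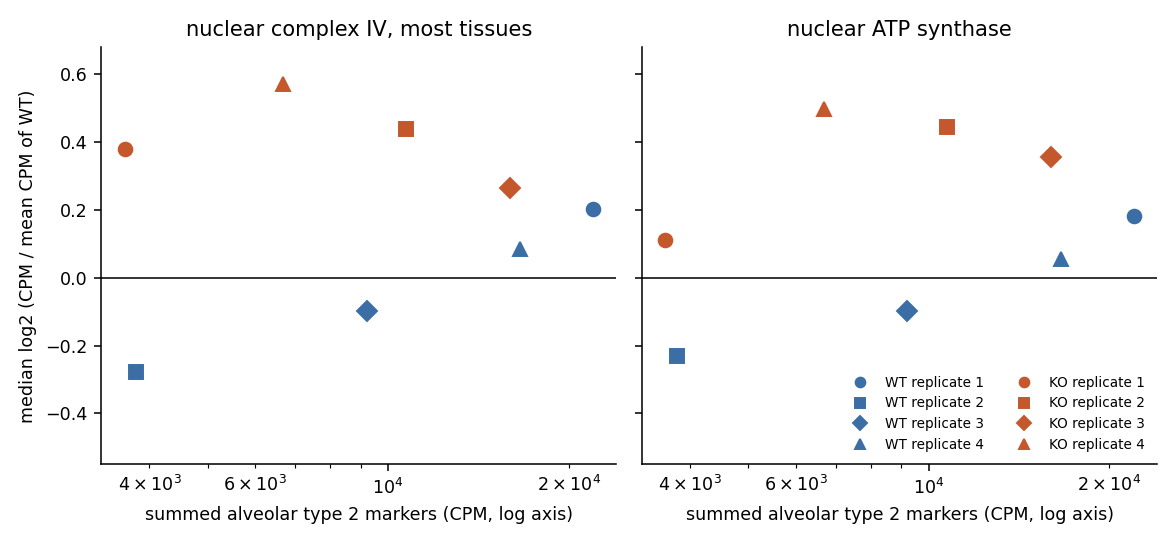
Summed CPM of 8 alveolar type 2 markers (horizontal, log axis) against the median log2 ratio of the nuclear subunit genes to their WT mean (vertical), for the 11 complex IV genes (left) and the 17 ATP synthase genes (right). Each symbol is 1 library, blue for WT and red for KO. In the left panel the 4 WT libraries stand in the same order on both axes and the 4 KO libraries do not.

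Complex IV subunits made in the cytosol surround the catalytic core. Cox7c, a small membrane-spanning subunit (chr13:86044816-86046904, GRCm38), had the smallest p among them. It read 48.4, 45.5, 49.8 and 51.9 CPM in WT and 111, 71.2, 62.4 and 81.0 CPM in KO. The WT libraries were tightly grouped and every KO library lay above them, KO replicate 1 the farthest. The log2 fold change was 0.74 (SE 0.22), with an edgeR adjusted p of 0.0826. The pseudogene Gm10012 is 99.4% identical to Cox7c over 315 bases and had up to 25 counts per library. The part of this copy was not tested.

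Cox5b, a matrix-facing subunit that binds zinc (chr1:36691449-36693681), read 59.3, 47.8, 44.6 and 38.8 CPM in WT and 95.9, 82.4, 63.1 and 70.8 CPM in KO. The groups did not overlap, with KO replicate 3 only just above WT replicate 1. Its log2 fold change was 0.71 (SE 0.22, edgeR adjusted p = 0.0962). The gene Gm11273 is 99.2% identical to Cox5b over 390 bases and had 0 counts, and its part was not tested. Cox6b1, which joins the monomers of the complex on the intermembrane side (chr7:30616861-30626151), read 108, 67.3, 83.1 and 96.6 CPM in WT and 123, 123, 128 and 149 CPM in KO. All KO libraries were higher, and they varied less than the WT libraries did (edgeR log2 fold change 0.56, SE 0.18, adjusted p = 0.116). Cox4i1 (chr8:120668222-120674207) encodes the largest nuclear subunit in the form most tissues use, and read 268, 200, 256 and 244 CPM in WT and 315, 277, 282 and 366 CPM in KO. KO replicate 2 and WT replicate 1 were close, yet the groups did not overlap (edgeR log2 fold change 0.36, SE 0.14, adjusted p = 0.233). Cox4i1 shares 154 exon bases with Emc8 on the other strand, and whether the counting used strand is not given in the sources used here.

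The other nuclear complex IV genes ran from 0.03 to 0.65 on the log2 scale. Cox7a2, the form of subunit VIIa in most tissues, was the fifth complex IV gene with every KO library above every WT library, with a WT mean of 67.8 ± 8.16 CPM and a KO mean of 87.7 ± 5.83 CPM (SD, n = 4). Cox7b, on chromosome X, had a log2 fold change of 0.65 with overlapping groups (edgeR adjusted p = 0.279). Cox5a, which binds next to Cox5b on the matrix side, and Cox8a, the smallest subunit, read 0.41 and 0.38 on the same scale. Cox6a1, Cox7a2l and Cox6c stood lowest, at 0.24, 0.14 and 0.03. Each of these 3 was below 0 once the length and GC trend was removed. Cox7a2l is a factor that joins complex III to complex IV in supercomplexes rather than a subunit of complex IV proper.

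**Figure D3:**
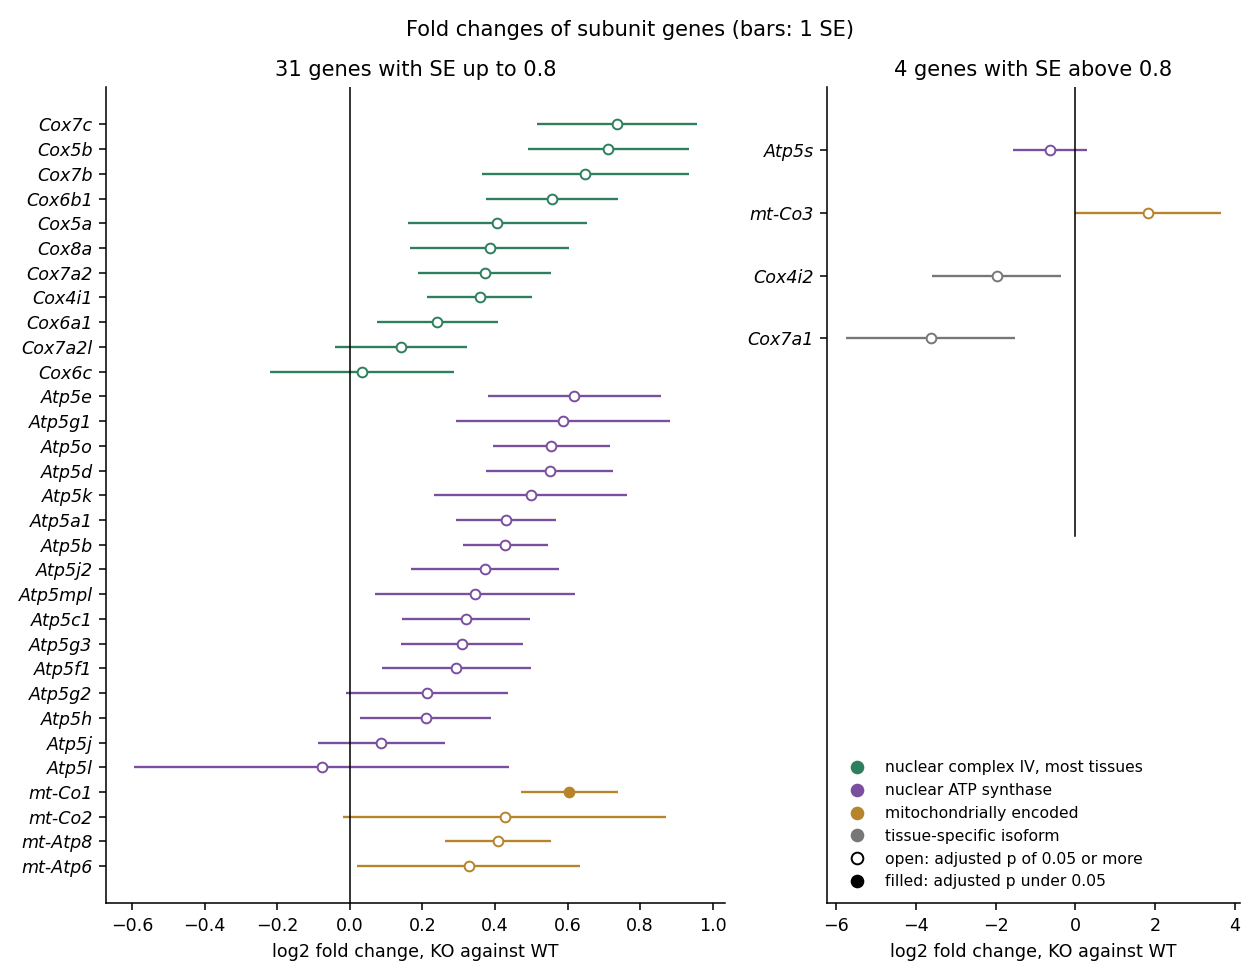
edgeR log2 fold change of KO against WT (horizontal axis) for the 35 subunit genes tested, with bars of 1 SE, split by the size of the SE into 31 genes (left) and 4 (right, on a wider scale). Colours give the gene group and only mt-Co1 is filled (adjusted p of 0.0175). Most points of the left panel lie between 0.2 and 0.7, right of 0.

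ATP synthase has its catalytic sites in the F1 head, a ring of alternating alpha and beta subunits. The beta subunit gene Atp5b (chr10:128083273-128090391) read 739, 662, 646 and 718 CPM in WT and 858, 942, 881 and 1038 CPM in KO. The 4 KO libraries stood clear of the 4 WT libraries, at 930 ± 80.4 against 691 ± 44.5 CPM (SD, n = 4). The log2 fold change was 0.43 (SE 0.12) and the edgeR adjusted p, 0.0541, just missed the threshold. Atp5b was called with DESeq2 (adjusted p = 0.00256), with limma voom (0.0313) and in 3 of the other 18 alternative fits. Atp5a1, the alpha subunit gene, read 620, 476, 518 and 572 CPM in WT and 591, 763, 742 and 847 CPM in KO. KO replicate 1 lay inside the WT range and the other 3 KO libraries above it. Its log2 fold change was 0.43 (SE 0.14, edgeR adjusted p = 0.108). Atp5a1 was called in 3 of 20 alternative fits. The edgeR adjusted p was 0.0399 without KO replicate 1 and 0.313, the highest, without KO replicate 4.

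The head is held still by the peripheral stalk, and the central stalk turns inside it. Atp5o, the stalk subunit named for its part in oligomycin sensitivity (chr16:91925214-91931687), read 110, 89.5, 98.2 and 112 CPM in WT and 131, 145, 158 and 170 CPM in KO. The groups were separated, and the log2 fold change was 0.56 (SE 0.16, edgeR adjusted p = 0.0727). Atp5d, the delta subunit of the central stalk (chr10:80138632-80145818), read 125, 90.4, 149 and 105 CPM in WT and 163, 191, 156 and 178 CPM in KO. Every KO library was higher, though KO replicate 3 was close to WT replicate 3 (edgeR log2 fold change 0.55, SE 0.17, adjusted p = 0.103). The other central stalk genes, Atp5e and Atp5c1, had log2 fold changes of 0.62 and 0.32 with overlapping groups. The other peripheral stalk genes, Atp5f1, Atp5h and Atp5j, were lower in the order, at 0.29, 0.21 and 0.09, and KO replicate 1 was the lowest of all 4 KO libraries in each. Atp5j was below 0 once the length and GC trend was removed.

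The small membrane subunits differed more among themselves. Atp5k, Atp5j2 and Atp5mpl had log2 fold changes of 0.50, 0.37 and 0.34. Atp5l, the g subunit found where pairs of ATP synthase meet, read 86.1, 26.1, 18.9 and 97.3 CPM in WT and 27.9, 63.7, 62.9 and 62.4 CPM in KO. WT replicates 1 and 4 lay above all KO libraries and WT replicates 2 and 3 below them, so no direction could be given (log2 fold change -0.08, SE 0.52, edgeR adjusted p = 0.985). Atp5s, a coupling factor outside the complex proper, was the least abundant nuclear ATP synthase gene at 8.45 ± 6.18 CPM in WT and 5.42 ± 3.15 CPM in KO.

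The c ring gives a case where 3 genes on 3 chromosomes, Atp5g1 (chr11:96068852-96075670), Atp5g2 (chr15:102662864-102672352) and Atp5g3 (chr2:73908447-73911326), encode the same mature protein behind different import signals. The last 120 coding bases of the GENCODE transcripts, without the stop codon, are shown because they show how far reads can tell the 3 genes apart. Capitals mark bases that differ from Atp5g3.
Atp5g3: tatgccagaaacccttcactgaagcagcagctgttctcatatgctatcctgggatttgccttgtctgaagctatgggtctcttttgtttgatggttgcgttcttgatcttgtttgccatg
Atp5g1: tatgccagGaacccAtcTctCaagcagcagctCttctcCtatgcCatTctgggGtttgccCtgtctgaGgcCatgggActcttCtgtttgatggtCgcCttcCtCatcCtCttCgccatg
Atp5g2: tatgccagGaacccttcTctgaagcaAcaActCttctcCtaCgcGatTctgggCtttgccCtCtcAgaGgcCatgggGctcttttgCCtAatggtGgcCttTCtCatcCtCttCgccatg

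Atp5g1 and Atp5g3 differ at 21 of these 120 bases, 18 of them at the last position of a codon, and Atp5g2 and Atp5g3 at 27, of which 23 are at that position. Of the CPM of the 3 genes together, Atp5g3 gave 59.7% ± 4.68 in WT and 58.3% ± 3.06 in KO (SD, n = 4). Atp5g2 gave 24.8% ± 6.26 and 22.5% ± 2.29, and Atp5g1 15.5% ± 5.57 and 19.2% ± 2.02. Per kilobase of the principal transcript, of 714 bases for Atp5g3, 731 for Atp5g2 and 4715 for Atp5g1, the shares were 69.3% ± 5.49 and 70.0% ± 2.85 for Atp5g3, 28.0% ± 5.99 and 26.5% ± 2.74 for Atp5g2, and 2.77% ± 1.15 and 3.50% ± 0.442 for Atp5g1. On both scales the mean shares of WT and KO differed by less than the SD of the WT libraries. The log2 fold changes were 0.59 for Atp5g1, 0.21 for Atp5g2 and 0.31 for Atp5g3, and the edgeR adjusted p of 0.370 for Atp5g1 was the lowest of the 3. The annotation holds processed pseudogenes nearly identical to long stretches of Atp5g1 and Atp5g2, which carried 0 counts in every library where the table lists them. The longest match to Atp5g2 covers 645 bases without a mismatch, and no such copy of Atp5g3 was found. How reads with several equally good places were counted is not given. The 0 counts therefore do not show that Atp5g1 and Atp5g2 kept all their reads. The part of the copies in the c ring shares was not tested.

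Mitochondrial genes are read as long transcripts that are then cut into separate messengers. mt-Co1 (chrM:5328-6872) read 8853, 7080, 6772 and 8669 CPM in WT and 13014, 14237, 9953 and 10503 CPM in KO. Every KO library lay above every WT library, with KO replicates 1 and 2 the highest. The group means were 7843 ± 1069 and 11927 ± 2037 CPM (SD, n = 4), a 1.52-fold rise (log2 fold change 0.60, SE 0.13, edgeR adjusted p = 0.0175). The rise was called in 15 of 20 alternative fits. The call was lost without WT replicate 2 (edgeR adjusted p = 0.0665), without WT replicate 3 (0.0752), without KO replicate 2 (0.0541), without WT replicate 3 and KO replicate 1 together (0.115) and with a replicate block plus the length and GC trend taken out (0.0842), while the log2 fold change stayed between 0.46 and 0.68 in all 20.

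mt-Atp8, a small membrane subunit of ATP synthase (chrM:7766-7969), read 1616, 1138, 1050 and 1525 CPM in WT and 1746, 2013, 1627 and 1686 CPM in KO. The groups did not overlap, but KO replicate 3 exceeded WT replicate 1 only narrowly (edgeR log2 fold change 0.41, SE 0.14, adjusted p = 0.153). Removal of the length and GC trend took the value to -0.01, so its direction rests on that choice. mt-Atp8 overlaps the gene of the next subunit, mt-Atp6 (chrM:7927-8607), which forms the proton channel. The junction is printed because the overlap bears on how reads can be assigned to either gene. The 43 bases that both genes use are in capitals, with 20 bases on each side.
mt-Atp8 and mt-Atp6 junction: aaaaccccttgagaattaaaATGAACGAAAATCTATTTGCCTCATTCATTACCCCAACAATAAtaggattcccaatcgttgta

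mt-Atp6 read 27.0, 20.3, 19.8 and 29.4 CPM in WT and 27.6, 36.6, 22.1 and 35.0 CPM in KO. mt-Co2, which receives electrons from cytochrome c (chrM:7013-7696), read 18.3, 8.35, 15.7 and 10.8 CPM in WT and 13.7, 21.9, 22.4 and 13.1 CPM in KO. mt-Co3, the remaining core subunit (chrM:8607-9390), read 0.918, 1.38, 0 and 0.904 CPM in WT and 0.0935, 3.67, 3.55 and 4.19 CPM in KO. The groups overlapped in all 3 genes and none was called (edgeR adjusted p = 0.754, 0.792 and 0.779). Their mean counts per library were far below those of mt-Co1, with 322 for mt-Atp6 and 23.6 for mt-Co3 against 116525.

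These low counts came with identical copies elsewhere. The annotation holds pseudogenes on chromosome 1 that match mt-Co2 over 681 bases, mt-Atp6 over 678 bases and mt-Co3 over 783 bases without a mismatch. The chromosome 1 copy of mt-Co1 covers only 483 of its 1545 bases and differs at 1 of them, while a copy on chromosome 2 covers all 1545 bases at 97.6% identity. For mt-Atp8 no annotated copy of 95% identity over at least 100 bases was found. That search covered annotated transcripts only. mt-Atp8 starts between mt-Co2 and mt-Atp6, whose copies lie at chr1:24614885-24615565 and chr1:24613974-24614651. The bases between these copies were not searched, so an unannotated copy of mt-Atp8 there would have been missed. No source used here says how reads with several equally good places were counted. The levels of mt-Co2, mt-Co3 and mt-Atp6 may not reflect their transcripts, and the part of the copies was not tested.

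The 8 mitochondrial protein genes with more than 500 CPM in WT showed a pattern along the genome. In genome order, the genes from mt-Nd1 to mt-Co1 had the larger fold changes: 0.53 for mt-Nd1, 0.48 for mt-Nd2 and 0.60 for mt-Co1 on the log2 scale. mt-Atp8 followed with 0.41. Farther along came mt-Nd4, mt-Nd5 and mt-Cytb, subunits of complexes I and III, with 0.14, 0.17 and 0.10. mt-Nd6, read from the other strand, had 0.18. Once the length and GC trend was removed, mt-Cytb stood at -0.08 and mt-Nd6 at -0.07. mt-Nd1 and mt-Nd2, complex I subunits, rose with mt-Co1 (edgeR adjusted p = 0.0253 and 0.0309), and neither call held with the length and GC trend taken out (0.192 and 0.176), nor in the fits that left out WT replicate 2, 3 or 4, KO replicate 1 or KO replicate 2. The mt-Nd2 call was also lost with a replicate block (edgeR adjusted p = 0.0604), without KO replicate 3 (0.0604) and, by a very small margin, with RLE factors.

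**Figure D4:**
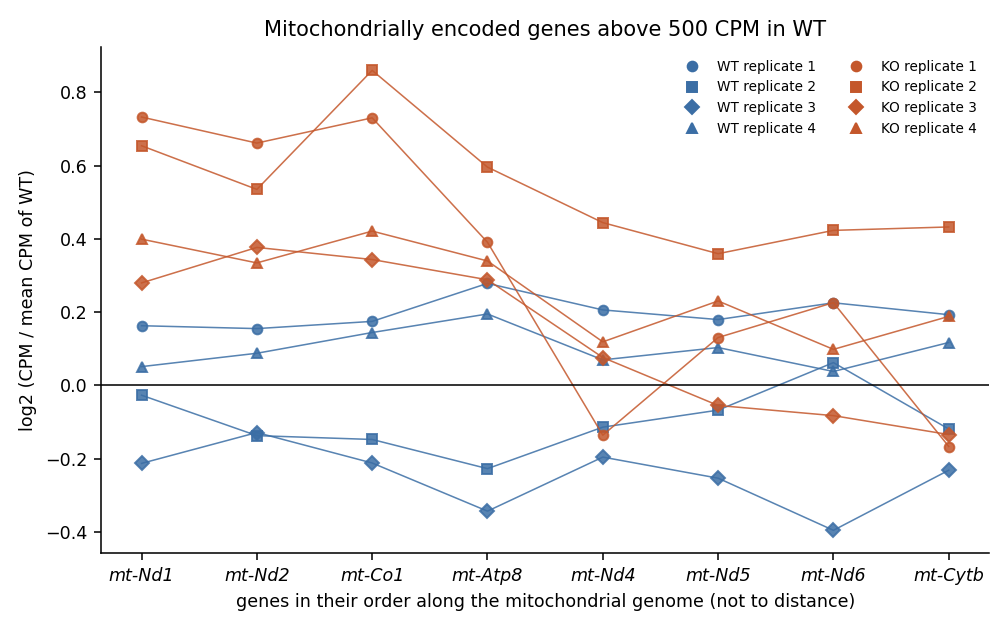
Level of the 8 mitochondrial protein genes above 500 CPM in WT, as log2 of the CPM over the WT mean (vertical axis), in genome order (horizontal axis, not to distance). Each line is 1 library, blue for WT and red for KO, and lines only join the values of a library. The 4 KO lines lie above the 4 WT lines from mt-Nd1 to mt-Atp8 and overlap them from mt-Nd4 on.

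A ratio of 2 mitochondrial genes within a library does not depend on the scaling of libraries. The log2 ratio of mt-Co1 to mt-Cytb was 0.65, 0.64, 0.69 and 0.70 in WT and 1.57, 1.10, 1.15 and 0.90 in KO. The WT libraries were nearly equal, and every KO library was higher, KO replicate 1 by the most. The difference of the means was 0.51 (exact permutation test, two-sided, n = 4 and 4, p = 0.02857, adjusted p = 0.05 over the 7 ratios computed). Without any 1 library it lay between 0.38 and 0.60. The 2 genes are alike in base composition (39.9% and 39.1% GC) and not far apart in length (1545 and 1144 bases).

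The ratios of mt-Co1 to mt-Nd4 and to mt-Nd5 were higher in KO by 0.46 and 0.42, and that of mt-Atp8 to mt-Cytb by 0.34, each again with no overlap of the groups and the same p. Against its upstream neighbours mt-Co1 overlapped between the groups: the difference was 0.08 for mt-Nd1 (exact permutation p = 0.371) and 0.12 for mt-Nd2 (exact permutation p = 0.200). The difference for mt-Atp8 was 0.17 (exact permutation p = 0.143). The ratios were chosen after the fold changes had been seen, so these p-values describe a pattern found in the same libraries.

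The tissue-specific isoforms of complex IV had reads in some libraries and none in others. Cox4i2, the lung isoform of subunit IV, read 19.4, 2.24, 0 and 8.95 CPM in WT and 0, 3.75, 3.47 and 0.506 CPM in KO. The WT libraries ranged from the highest value to 0, so the groups overlapped (log2 fold change -1.98, SE 1.62, edgeR adjusted p = 0.691). Per kilobase of exons Cox4i2 made up 5.33% ± 5.50 of the Cox4i1 and Cox4i2 pair in WT and 1.31% ± 1.36 in KO (SD, n = 4). With the length of the principal transcript in its place the shares were 2.96% ± 3.10 and 0.702% ± 0.732.

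Cox4i2 is known from pericytes, the contractile cells wrapped around capillaries. The summed level of 11 detected pericyte markers was 461, 155, 403 and 536 CPM in WT and 176, 370, 285 and 172 CPM in KO. WT replicates 1 and 4 were the highest WT libraries for both, while WT replicate 3 had pericyte markers and 0 reads of Cox4i2. The same libraries were highest in WT for summed alveolar type 2, leukocyte and platelet, and smooth muscle markers. The part of RNA from pericytes or from these other cells in the Cox4i2 values was not tested.

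Cox7a1, the isoform of subunit VIIa found in heart, skeletal muscle and brown fat, read 1.84, 1.55, 10.1 and 2.63 CPM in WT and 0, 1.25, 0 and 0 CPM in KO. Each KO library lay below each WT library, as in 4.67% of all genes tested, and 3 of 4 KO libraries had no read. The margin was small, with 18 counts in WT replicate 2 and 16 in KO replicate 2. Cox7a1 met the low-count filter through its WT libraries, the group where it was higher. The direction and the separation therefore follow in part from the filter. The edgeR adjusted p was 0.483. Of its pair with Cox7a2 it made up 4.69%, 3.98%, 23.0% and 5.53% per kilobase in WT, 2.40% in KO replicate 2 and 0% in the other KO libraries. Skeletal muscle markers summed to at most 0.167 CPM in WT and reached 4.30 CPM in KO, with 6 of 12 at 0 in all libraries. Cardiac markers summed to 8.06 to 33.8 CPM in WT and 34.0 to 99.2 CPM in KO. Of 8 brown fat markers Ucp1, Cidea, Elovl3, Adipoq and Cidec were at 0, and the other 3 summed to 27.9 to 178 CPM in WT and 47.8 to 79.2 CPM in KO. Nearly all of that was Fabp4, a fatty acid binding protein also made by endothelial cells, which read 26.2, 38.8, 148 and 177 CPM in WT and was not called (edgeR log2 fold change -0.61, adjusted p = 0.781). The part of RNA from these cell types in the Cox7a1 values was not tested.

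Cox6a2, the muscle form of subunit VIa, had reads in WT replicate 1 (2.92 CPM), KO replicate 2 (1.64 CPM) and KO replicate 4 (0.939 CPM) and in no other library. Cox6b2, the testis form of subunit VIb, had 4.77 CPM in WT replicate 3 and up to 0.553 CPM elsewhere. Cox8b, the muscle form of subunit VIII, had reads in KO replicate 3 alone, at 1.5 CPM. Each of these was carried by 1 to 3 libraries, and none passed the low-count filter. Where an alternative fit kept them, none was called: the edgeR adjusted p was 0.968 to 0.995 for Cox6a2 in 7 fits, and 0.734 for Cox6b2 and 0.302 for Cox8b without the filter. Cox7b2 and Cox8c, both known from testis, had 0 counts in all 8 libraries, which allows up to 3 counts or 0.217 to 0.448 CPM per library for counting error alone.

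**Figure D5:**
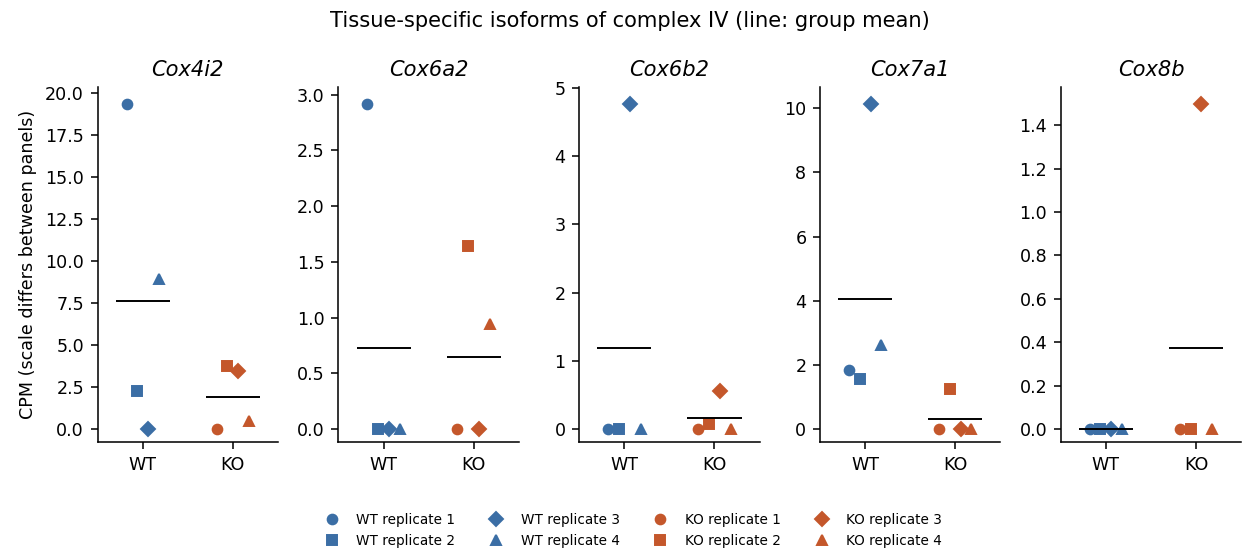
CPM of the 5 tissue-specific complex IV isoforms with any read (vertical axes, each on its own scale) in the WT (blue) and KO (red) libraries, with the group mean as a line. Cox7a1 is at 0 in 3 KO libraries, and the highest WT value of Cox7a1 and of Cox6b2 comes from WT replicate 3.

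Levels of different subunits can be set side by side only per length. Per kilobase of summed exons mt-Atp8 and mt-Co1 led in WT, with 6529 and 5077 CPM per kilobase. The highest nuclear genes were Cox6a1 (249 CPM per kilobase), Cox8a (175), Atp5a1 (174), Atp5b (163) and Cox4i1 (156). Per kilobase of the principal transcript, a length chosen after the data were seen, Atp5b (361), Cox4i1 (316) and Cox6a1 (306) led. Atp5l moved from 8.86 to 105 CPM per kilobase between these lengths, as its exons sum to 6443 bases and its principal transcript has 544. The order of the nuclear subunits thus depends on the length used, while both mitochondrial genes stay on top.

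RefSeq promoters of GRCm38.p6, of 300 bases around each start (250 before, 50 after), were found for 28 of the 35 nuclear genes, 31 promoters in all. They were searched on both strands for 5 short motifs named after the factors known to bind them. The palindromic NRF1 motif was in 7 of 31 (22.6%), beside 4.60% of all 32851 promoters and 9.73% of the 12506 promoters of genes tested here. The ETS motif, CCGGAAG, was in 8 of 31 (25.8%), beside 8.86% and 17.3%. The ERR motif, TNAAGGTCA, was in the Atp5g3 promoter alone, and the YY1 motif and the ATF4 motif, TGANGCAA, in 0 of 31. A match says only that the letters are present. Among the nuclear genes with values in every library above, Atp5o held an NRF1 match, and Cox6b1 and Atp5l an ETS match. Cox4i1 and Atp5a1 were not searched.

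The Cox6a1 (chr5:115348959-115349208) and Atp5h (chr11:115419920-115420169) promoters, both on the minus strand, are shown as examples with both motifs, in genes whose fold changes were small. Atp5b (chr10:128083057-128083306, plus strand) is shown as the nuclear gene with the smallest p, and Cox7a1 (chr7:30183921-30184170, plus strand) as the muscle isoform with every KO value below every WT value. Each line gives the 250 bases before the RefSeq start in the direction of transcription. Capitals mark matches to the NRF1 motif on either strand or, in 7 letters, the ETS motif, here on its other strand.
Cox6a1: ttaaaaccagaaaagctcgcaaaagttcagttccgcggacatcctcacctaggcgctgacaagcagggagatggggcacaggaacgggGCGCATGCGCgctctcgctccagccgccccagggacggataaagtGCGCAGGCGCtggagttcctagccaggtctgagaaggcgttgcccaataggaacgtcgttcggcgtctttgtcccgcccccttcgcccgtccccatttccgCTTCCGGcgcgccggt
Atp5h: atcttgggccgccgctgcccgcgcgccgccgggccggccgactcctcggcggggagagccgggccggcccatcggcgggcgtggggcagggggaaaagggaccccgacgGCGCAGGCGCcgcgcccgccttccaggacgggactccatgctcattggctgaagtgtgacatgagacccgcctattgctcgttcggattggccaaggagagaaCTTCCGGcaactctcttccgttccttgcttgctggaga
Atp5b: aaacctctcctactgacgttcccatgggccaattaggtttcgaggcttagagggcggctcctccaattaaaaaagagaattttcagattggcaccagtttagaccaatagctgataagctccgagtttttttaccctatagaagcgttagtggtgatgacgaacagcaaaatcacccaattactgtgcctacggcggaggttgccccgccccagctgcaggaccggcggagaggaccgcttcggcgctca
Cox7a1: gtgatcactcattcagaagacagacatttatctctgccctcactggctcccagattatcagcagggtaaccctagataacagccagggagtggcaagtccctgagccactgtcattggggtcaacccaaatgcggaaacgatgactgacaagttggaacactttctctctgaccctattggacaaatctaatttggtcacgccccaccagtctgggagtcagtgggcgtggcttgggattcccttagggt

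Neither Atp5b nor Cox7a1 held a match to any of the 5 motifs in its window. Fold changes of the motif holders ran across the range of the nuclear genes, from 0.09 for Atp5j to 0.62 for Atp5e among those with the ETS motif, apart from Atp5l at -0.08.

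Genes that work with these complexes were counted from lists. Of 25 tested genes for complex IV assembly and copper delivery 0 were called and 0 had an unadjusted p under 0.05 in either direction, with 13 fold changes above 0 and a median of 0.10. The smallest p values belonged to Coa5 (log2 fold change 0.47, edgeR adjusted p = 0.376) and Smim20 (-0.85, adjusted p = 0.515). Of 7 tested ATP synthase assembly and associated genes 0 were called, with a median of 0.23. One of them, Usmg5, which encodes a small subunit that stabilises ATP synthase, had an unadjusted p under 0.05 at a log2 fold change of 0.74 (edgeR adjusted p = 0.262). Tmem242, an assembly factor, was next at 0.52 (adjusted p = 0.341).

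Of 23 tested genes for mitochondrial transcription and transcript stability 0 were called, with a median of 0.14. Lrpprc, which stabilises mitochondrial messengers, read 34.3, 20.1, 36.2 and 31.7 CPM in WT and 49.9, 43.5, 67.6 and 48.7 CPM in KO. The groups did not overlap (edgeR log2 fold change 0.78, SE 0.27, adjusted p = 0.139). Tbrg4, which acts on the same messengers, had a log2 fold change of 0.62 (edgeR adjusted p = 0.486).

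The carriers that bring ADP and phosphate to ATP synthase, with the porins of the outer membrane, stood highest among these lists. All 6 genes tested had an unadjusted p under 0.05 in the higher direction, beside 8.69% of all genes tested. Together they had a median of 0.54 on the log2 scale. Of the 6, 1 was called, where 2.25% of all genes were called higher. That gene, Slc25a5, an ADP/ATP carrier, read 230, 187, 172 and 253 CPM in WT and 259, 326, 363 and 448 CPM in KO. The groups did not overlap, although KO replicate 1 was close to WT replicate 4. It rose by 0.73 on the log2 scale (SE 0.18, edgeR adjusted p = 0.0283). It did not pass in the fits that left out WT replicate 2, WT replicate 3 or any of KO replicates 2 to 4 (highest adjusted p = 0.110), nor with the length and GC trend taken out (0.0615). Slc25a3, the phosphate carrier, had a log2 fold change of 0.48 (edgeR adjusted p = 0.0599) and Slc25a4, the carrier most abundant in heart and muscle, 0.56 (adjusted p = 0.123).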

How the data were processed

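The members and lists were chosen with earlier results of these data known. The authors deposited a table of read counts, whole numbers that were not normalized, with 1 column per library and 0 value columns left over. The tools named in the submitters' processing notes are bcl2fastq, TopHat, HTSeq and edgeR, with the build mm10 and without versions. Annotation release, strand setting and treatment of reads with several places are not given in the labels or files used here. Of 43430 gene IDs 42462 had a symbol in GENCODE vM21 (GRCm38). Groups and replicate numbers came from the labels.

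Genes were kept by filterByExpr at a minimum count of 10 and a minimum total of 15, and libraries were scaled by TMM. The test of KO against WT was edgeR's quasi-likelihood test (edgeR 4.0.16, R 4.3.3, robust, genotype alone), adjusted by Benjamini-Hochberg over 12689 genes at 0.05. Each SE is the log2 fold change over the root of F. Biological variation between libraries was 63.5% in common (coefficient of variation). The pipeline was tested on simulated data. Replicates differed beyond sampling noise, with a chi-square of 34.4 to 77.1 per degree of freedom. Reads carry no molecular identifiers, so floors of 3 counts cover counting error only. Ratios of mitochondrial genes were compared by exact permutation tests (SciPy 1.17.1). Copies were sought with BLAST 2.17.0 among GENCODE transcripts, at 95% identity over at least 100 bases: 21 members had such a stretch in another gene, 16 of them in a pseudogene, and 15 overlapped exons of another gene.

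Genes with values in every library were, by rule, those called, the 4 nuclear genes of each complex with the smallest p, the mitochondrial members and the tissue isoforms with any count. Of other lists, called genes or the 2 with the smallest p were named. Atp5l, Atp5s, Slc25a3, Slc25a4 and the mitochondrial ratios were described after their values had been seen. Alternatives were RLE factors, TMM without mitochondrial genes, no filter or 1 CPM in 4 libraries, DESeq2 1.42.0, limma voom 3.58.1, edgeR's newer dispersion option, a replicate block, removal of the length and GC trend, and leaving out libraries. The alveolar type 2 level as a covariate, the length of the principal transcript and the tests of ratios were added after the data were seen. A test of mitochondrial copies in the whole genome was not made here.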

Additional observations from a re-analysis of the deposited data

Results flagged for a closer look

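There were 83 groups of 4 libraries: 75 of single genes with any count in WT or KO, and 8 of summed shares of counts. In 12 of them, 1 library stood apart by Dixon's test, which divides the gap to the nearest library by the group's range. That ratio ran from 0.844 to 1.0 in the 12 groups. About 1 group in 20 passes the cutoff by chance when values are normally distributed. Groups with reads in 1 library alone have a ratio of 1.0 by construction. The 12 groups therefore cannot be set against the rate of 1 in 20. KO replicate 1 was the library apart in 4 of the 12 groups, as the lowest KO library each time. It read 93.4 CPM for Atp5f1, 97.7 CPM for Atp5h, 27.9 CPM for Atp5l and 0.0935 CPM for mt-Co3. WT replicate 1 was the highest WT library for Cox6c (117 CPM) and for Atp5k (50.9 CPM). In the tissue isoforms, WT replicate 1 was the only WT library with reads of Cox6a2 (2.92 CPM), WT replicate 3 the only one with reads of Cox6b2 (4.77 CPM), and KO replicate 3 the highest KO library for Cox6b2 (0.553 CPM) and the only one with reads of Cox8b (1.5 CPM). For Cox7a1, WT replicate 3 was the highest WT library (10.1 CPM) and KO replicate 2 the only KO library with reads (1.25 CPM).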

How the results depend on the processing

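Of all genes 285 were called higher and 176 lower. The newer edgeR dispersion option gave 450 and 296, DESeq2 371 lower, and leaving out 1 library 173 to 259 higher and 97 to 187 lower, with the fewest without KO replicate 3. Of the 35 subunit genes tested DESeq2 and the alveolar type 2 level as a covariate called 4 higher, limma voom and the newer option 2, and the fit without WT replicate 3 and KO replicate 1, the libraries apart over all genes, called 0. Leaving out 1 library gave 0 (without WT replicate 2 or 3 or KO replicate 2) to 3 (without KO replicate 1). The count of nuclear genes with all KO above all WT libraries was 8 to 15 with 1 library left out and 17 without WT replicate 3 and KO replicate 1. Such separation is easier to reach with fewer libraries, and the share over all genes is not given for these counts. The median of the 2 tissue isoforms tested, -2.81, was -5.52 to -1.57 with 1 library left out, a range over 2 or, where the filter then also kept Cox6a2, 3 genes. Of the genes in this median, Cox7a1 met the filter through its WT libraries, the group where it was higher. Removal of the length and GC trend lowered the medians to 0.20 (nuclear complex IV), 0.16 (nuclear ATP synthase) and 0.15 (mitochondrial), and turned mt-Atp8 (-0.012), Cox6a1 (-0.046), Cox6c (-0.026), Cox7a2l (-0.035) and Atp5j (-0.027). Cox6c was also below 0 with RLE factors (-0.0027), DESeq2 (-0.0027) and limma voom (-0.031), and was -0.15 to 0.25 with 1 library left out. Atp5j was -0.046 to 0.16 with 1 library left out. Atp5l was -0.37 to 0.31 so, 0.070 with limma voom and 0.38 with the covariate. The other subunit genes tested kept their direction in the alternatives run. Outside the subunit genes, removal of the length and GC trend turned mt-Cytb (-0.077) and mt-Nd6 (-0.074). The cause of each change was not tested.

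The labels do not say whether the replicate numbers pair the libraries. Deviations of same-numbered libraries correlated at -0.10, -0.10, -0.01 and 0.00 (Pearson, across genes). Such correlations cannot show whether same-numbered libraries were handled together. With a replicate block edgeR called 215 genes higher and 123 lower and again 1 subunit gene, mt-Co1 (adjusted p = 0.0285). Under the block the tissue isoform median was -4.08, Cox6c -0.025 and Atp5l 0.19. The replicate block with the length and GC trend removed gave 169 genes higher, 0 subunit genes called, medians of 0.19 (nuclear complex IV), 0.18 (mitochondrial) and -4.34 (tissue isoforms), and fold changes of -0.054 for Cox6a1, -0.083 for Cox6c, -0.025 for Cox7a2l, -0.036 for Atp5j and 0.23 for Atp5l.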
